A study of Homo sapiens with 8 samples.

Results

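The genes described here are the 48 protein-coding genes whose symbols start with PSMA, PSMB, PSMC, PSMD, PSME, PSMF or PSMG followed by a number, out of 20037 protein-coding genes on the human chromosomes 1 to 22, X and Y (RefSeq, GRCh38.p14). They comprise 8 core alpha genes (PSMA), 7 core beta genes (PSMB1 to PSMB7), 4 immune and thymus beta genes (PSMB8 to PSMB11), 6 ATPase genes (PSMC), 14 lid or base genes (PSMD), 4 activator genes (PSME), the inhibitor PSMF1 and 4 assembly chaperone genes (PSMG). Classes follow the symbols, so the lid or base class also holds base assembly chaperones such as PSMD9 and PSMD10. A gene was counted as bound in a peak list when a peak overlapped the 1000 bp on either side of either of its ends in hg38. The peak lists come from CUT&RUN, in which an antibody directs a nuclease to cut out the DNA around a bound protein, with antibodies to NFYB or NFYC, subunits of the transcription factor NF-Y.

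The cells were RH4 and RH30, established human rhabdomyosarcoma lines labelled as carrying the PAX3-FOXO1 fusion gene. RH30 cells of every group carried an inducible cytosine base editor, received a guide RNA, were selected with blasticidin and were harvested 8 days after rapamycin had been added to start editing. The RH30 NFYB groups were sgCCAAT2a and sgCCAAT2b, guides of the experiment that edited a CCAAT in the PAX3 promoter, and the control guides sgCtrl1 and sgCtrl2. The RH4 NFYB and NFYC libraries came from uninfected, unedited cells. Libraries made with IgG are not analysed here. Each combination of line, guide and antibody had 1 library, so no difference between conditions has a replicate check and no p-value is given. The titles and the design text give RH30 for libraries whose cell line label reads RH4, and the titles were followed.

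The proteasome degrades proteins tagged with ubiquitin. Its core particle is a stack of alpha and beta rings with the cutting sites inside the beta rings. A regulatory particle, made of a lid and a base that includes the ATPase ring, binds ubiquitin, removes it and unfolds the substrate. The subunits NFYA, NFYB and NFYC together form NF-Y, which binds the letters CCAAT in promoters, and proteasome genes as a group are known targets of NFE2L1, which binds antioxidant response elements.

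Of the 48 genes, 4 had a peak in all 6 lists (PSMA3, PSMA5, PSMD4 and PSME2), and 32 had none in any list. Below are the RefSeq GRCh38.p14 promoters, 250 bases before to 50 after the gene start and read on the gene's strand, that show this contrast. The promoters of PSMA3 (chr14:58244593-58244892, plus strand) and PSMA5 (chr1:109426399-109426698, minus strand) are those of genes in all 6 lists with CCAAT. The promoter of PSME2 (chr14:24146561-24146860, minus strand) is that of a gene in all 6 lists without it, and PSMA1 (chr11:14520337-14520636, minus strand) is a core gene with no peak. The PSMA1 start shown lies inside the gene, whose outer 5′ end is at 14643662. The nearest peak to any of its starts or ends was 161618 bp away. Of the unbound genes with a promoter entry, 11 had CCAAT and 17, PSMA1 among them, did not. Capitals mark CCAAT, or ATTGG where it lies on the opposite strand.
PSMA3: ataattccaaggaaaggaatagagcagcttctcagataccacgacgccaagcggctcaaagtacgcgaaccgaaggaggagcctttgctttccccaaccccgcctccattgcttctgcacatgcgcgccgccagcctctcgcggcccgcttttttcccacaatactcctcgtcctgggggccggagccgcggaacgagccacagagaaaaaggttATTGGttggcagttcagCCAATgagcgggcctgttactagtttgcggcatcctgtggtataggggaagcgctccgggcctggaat
PSMA5: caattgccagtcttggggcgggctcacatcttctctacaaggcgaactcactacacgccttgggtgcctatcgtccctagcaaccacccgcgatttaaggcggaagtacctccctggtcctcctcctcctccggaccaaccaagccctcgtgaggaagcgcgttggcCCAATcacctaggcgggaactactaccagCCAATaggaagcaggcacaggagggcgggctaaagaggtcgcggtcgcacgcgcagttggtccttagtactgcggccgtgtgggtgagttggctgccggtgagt
PSME2: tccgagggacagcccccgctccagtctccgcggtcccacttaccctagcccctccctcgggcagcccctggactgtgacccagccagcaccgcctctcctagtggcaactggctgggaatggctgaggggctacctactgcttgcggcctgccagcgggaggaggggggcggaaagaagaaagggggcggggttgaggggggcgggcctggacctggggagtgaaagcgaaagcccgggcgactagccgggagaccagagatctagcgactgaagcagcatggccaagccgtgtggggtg
PSMA1: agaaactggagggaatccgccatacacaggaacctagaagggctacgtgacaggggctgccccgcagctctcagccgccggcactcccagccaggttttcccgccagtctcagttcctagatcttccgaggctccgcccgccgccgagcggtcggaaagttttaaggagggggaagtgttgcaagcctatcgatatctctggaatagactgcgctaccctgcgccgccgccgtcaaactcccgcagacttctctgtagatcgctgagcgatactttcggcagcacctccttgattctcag

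In RH30 cells the share of proteasome genes with a peak was near that of all genes. In RH4 it was above that of all genes, for NFYB well within the counting error and for NFYC at the edge of it. In RH4, 10 of 48 were bound in the NFYB list (20.8%, exact 95% interval 10.5 to 35%), against 15% of all protein-coding genes. The RH4 NFYC list held 13 (27.1%, 15.3 to 41.8%), against 15.3% of all genes. With only the 2451 widest NFYC entries it held 8 of 48, against 11.3% of all genes, and PSMB1, PSMC3, PSMC4, PSMD8 and PSME1 were no longer bound in it. In edited RH30 cells, sgCCAAT2a and sgCCAAT2b each held 4 (8.33%, 2.32 to 20%), against 8.9% and 9.27% of all genes. In control RH30 cells, sgCtrl1 held 7 (14.6%, 6.07 to 27.8%) and sgCtrl2 held 9 (18.8%, 8.95 to 32.6%), against 12.6% and 16.8% of all genes. The interval covers the counting of genes only, and it holds the all-gene share in every list. In RH4 NFYC it does so only at its lower edge, where the bound and the all-gene share both round to 15.3%.

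**Figure D1:**
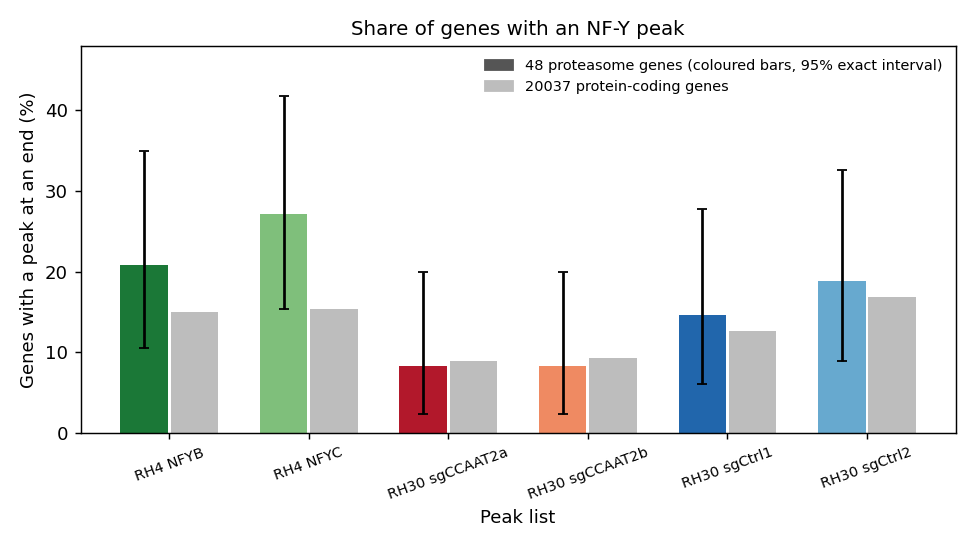
Percent of genes with a peak within 1000 bp of a gene end (y axis) in each peak list (x axis), for the 48 proteasome genes (coloured bars, with the exact 95% interval of the count) and all 20037 protein-coding genes (grey bars). The coloured bar is above the grey one in the RH4 and control lists and just below it in both edited lists, at 8.33% against 8.9% and 9.27%.

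Counted over lists, 16 of 48 proteasome genes (33.3%, 20.4 to 48.4%) had a peak in at least 1 list, against 21.7% of all genes. The 4 in all 6 lists are 8.33% of the 48 (2.32 to 20%), against 7.03% of all genes. A pattern of both RH4 lists and no RH30 list was seen at 4 genes, PSMA2, PSMB1, PSMB3 and PSMD10 (8.33%, 2.32 to 20%), against 1.64% of all genes. This combination of lists was not among the planned counts, so its share is a description only. The PSMB1 peaks lay nearest to another gene, TBP. PSMB1 also left the RH4 NFYC list when only the widest entries were kept. The RH4 lists and the RH30 lists differ in line, in guide treatment and in peak width, and how the RH4 peaks were called is not stated in those sources that were used. Line and calling method therefore cannot be told apart.

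The lists themselves differed. They held 3243 peaks for RH4 NFYB and 3760 for RH4 NFYC, 2451 for sgCCAAT2a and 2558 for sgCCAAT2b, and 4025 for sgCtrl1 and 6687 for sgCtrl2. The RH30 headers give 21.2 and 28.2 M tags for sgCCAAT2a and sgCCAAT2b, against 13.9 and 10.5 M tags for sgCtrl1 and sgCtrl2, so the shallower control libraries gave the longer lists. The share of tags inside peaks was 1.22% and 1.46% in the edited libraries and 2.40% and 3.10% in the controls. Depth is unknown for RH4. None of 8 genes chosen as ones these lines should not use had a peak in any list, and 2 of 5 myogenic genes did. Among all genes, 21.7% had a peak in at least 1 list. The 2 include PAX3, whose promoter was the one edited in the experiment. A peak list holds no expression and cannot check the cell type.

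**Figure D2:**
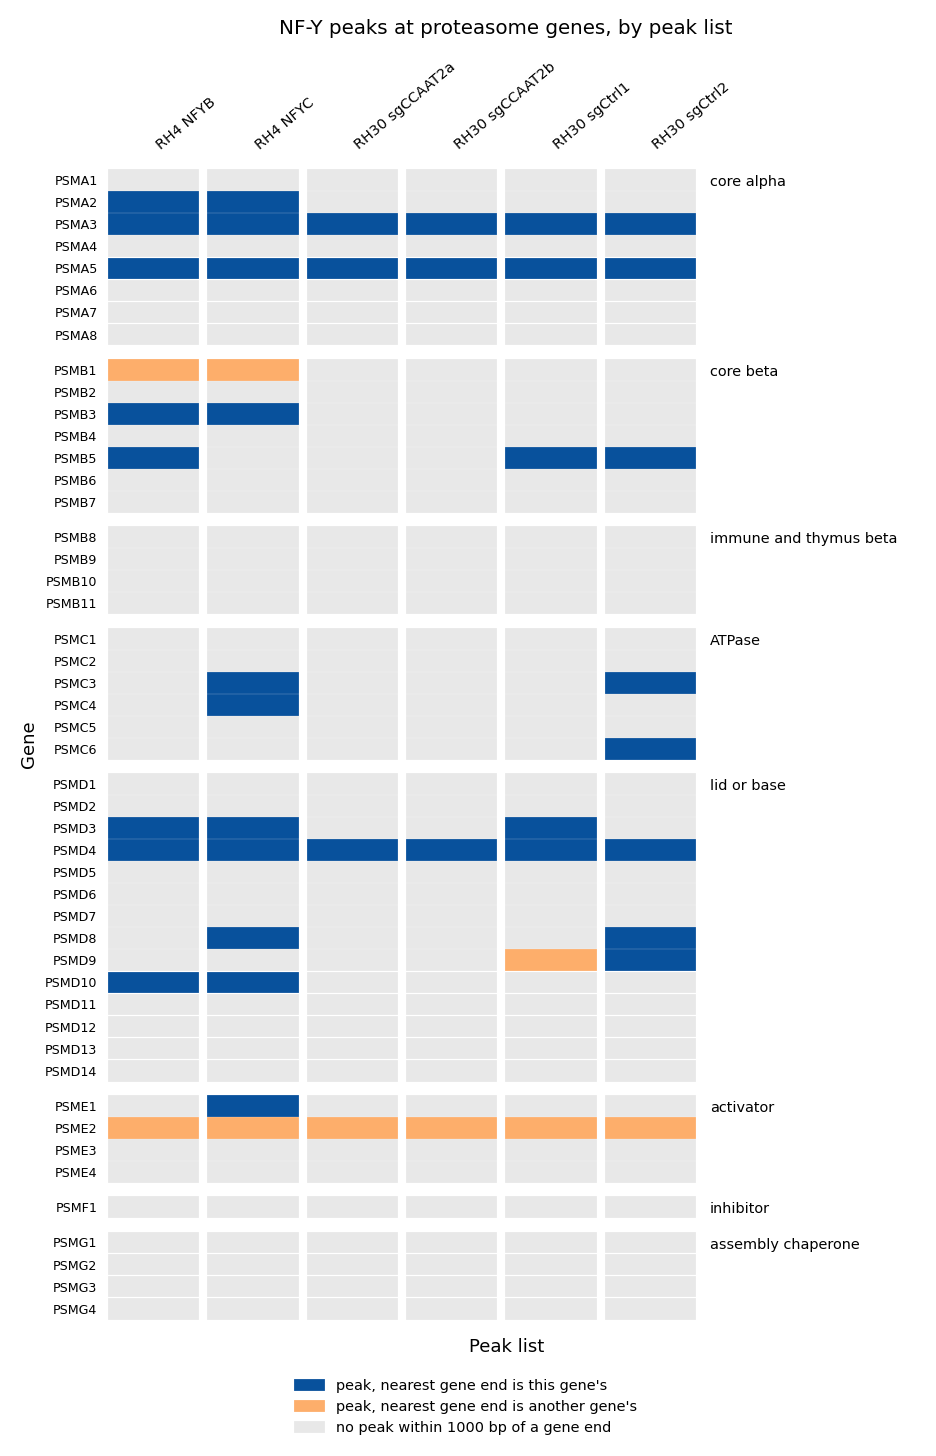
Each of the 48 genes (rows, by class) in each of the 6 peak lists (columns), coloured by whether a peak lay within 1000 bp of a gene end and whether the gene end nearest to that peak was the gene's own. PSMA3, PSMA5 and PSMD4 have a peak of their own in all 6 lists, while the peaks at PSME2 lie nearest to another gene.

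The core alpha genes encode the outer rings and the gate of the core. Of them, 3 of 8 had a peak in at least 1 list (37.5%, 8.52 to 75.5%), against 21.7% of all genes. PSMA3 and PSMA5 were in all 6 lists (2 of 8, 25%, 3.19 to 65.1%), against 7.03% of all genes. PSMA2 was in both RH4 lists. PSMA1, PSMA4, PSMA6, PSMA7 and PSMA8, the last known from testis, were in none.

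The PSMA5 peak was placed alike in every list. Its centre lay 86.5 and 105 bp upstream of the start in RH4 NFYB and NFYC, 87 and 90 bp upstream in sgCCAAT2a and sgCCAAT2b, and 88 and 71 bp upstream in sgCtrl1 and sgCtrl2. In every list it was 5.5 to 24 bp from the nearer CCAAT of the printed promoter, whose CCAAT are centred at -81 and -52 bp. A further peak 966.5 to 982.5 bp beyond the 3′ end of PSMA5 was called in both RH4 lists and in sgCtrl2, and it lies nearest to an end of SORT1, the gene 1124 bp away.

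PSMA3 carried a peak on its start. Centres were at 10.5 and -26 bp from the start in RH4 NFYB and NFYC, -39 and -18 bp in sgCCAAT2a and sgCCAAT2b, and -39 and -79 bp in sgCtrl1 and sgCtrl2. The promoter holds CCAAT on both strands, centred at -33 bp (minus strand) and -16 bp, and the peak centres were 2 to 46 bp from the nearer of them. PSMA2 had centres at -70.5 bp in RH4 NFYB and -68.5 bp in RH4 NFYC, 11.5 and 13.5 bp from a CCAAT at -82 bp, in a stretch it shares with MRPL32, a mitochondrial ribosomal protein gene that begins 202 bp away.

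Of the core beta genes, 3 of 7 had a peak in at least 1 list (42.9%, 9.9 to 81.6%), against 21.7% of all genes. Both edited lists held 0 of 7 (upper limit 41%), against 8.9% and 9.27% of all genes. Each control list held 1 of 7, against 12.6% and 16.8% of all genes. PSMB5, which carries the chymotrypsin-like cutting site, was the only one of the catalytic genes PSMB5, PSMB6 and PSMB7 with a peak. It was in RH4 NFYB, sgCtrl1 and sgCtrl2, with centres at 116, 197 and 163 bp from one RefSeq start and at -204, -123 and -157 bp from another. The only CCAAT in its table entries lies 278 to 359 bp from these centres, outside the peaks. PSMB3 was in both RH4 lists, with centres at 10.5 bp in NFYB and -90 bp in NFYC and CCAAT at -53 and -11 bp. The PSMB1 peaks, also in both RH4 lists, lay 908 and 958.5 bp outside the gene and nearest to TBP, the gene of the TATA-binding protein, which starts 1062 bp away.

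The immune and thymus genes PSMB8, PSMB9, PSMB10 and PSMB11, which replace catalytic subunits in immune cells and the thymus, had no peak in any list. This is 0 of 4 (upper limit 60.2%), against 21.7% of all genes with a peak in at least 1 list, a share the interval holds.

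The products of the ATPase genes form the unfolding ring. Of these genes, 3 of 6 had a peak in at least 1 list (50%, 11.8 to 88.2%), against 21.7% of all genes. RH4 NFYB, sgCtrl1 and both edited lists each held 0 of 6 (upper limit 45.9%). Of all genes, 15% were in RH4 NFYB, 12.6% in sgCtrl1, 8.9% in sgCCAAT2a and 9.27% in sgCCAAT2b. PSMC3 was in RH4 NFYC and sgCtrl2, with centres at -121.5 and -108 bp, 9.5 and 4 bp from a CCAAT at -112 bp. PSMC4 was in RH4 NFYC alone (-136.5 bp) and PSMC6 in sgCtrl2 alone (-14 bp), and no CCAAT was found in the 300 bases of either. The RH4 NFYC peaks at PSMC3 and PSMC4 were 76 bp wide, the smallest width in that list. PSMC1, PSMC2 and PSMC5 had no peak.

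Among the lid or base genes, 5 of 14 had a peak in at least 1 list (35.7%, 12.8 to 64.9%), against 21.7% of all genes. These 5 include the base assembly chaperones PSMD9 and PSMD10. PSMD4, a ubiquitin receptor of the regulatory particle, was in all 6 (1 of 14, 7.14%, against 7.03% of all genes). Its peak centre lay 1 bp inside the gene end in RH4 NFYB and 23.5 bp outside it in RH4 NFYC, which also had a second peak 206 bp inside. In sgCCAAT2a and sgCCAAT2b it lay 37 and 16 bp outside, and in sgCtrl1 it lay 25 bp outside and in sgCtrl2 21 bp inside. The promoter of PSMD4 was not analysed here.

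The remaining lid or base genes with peaks had them in fewer lists. The lid gene PSMD3 was in RH4 NFYB, RH4 NFYC and sgCtrl1, with centres at -204, -228.5 and -203 bp, 11 to 13.5 bp from a CCAAT at -215 bp. PSMD10, the base assembly chaperone also called gankyrin, was in both RH4 lists at -6.5 bp (NFYB) and -78 bp (NFYC), with a CCAAT at -74 bp. The lid gene PSMD8 was in RH4 NFYC and sgCtrl2, 42 and 101 bp downstream of its start and 128 and 187 bp from its CCAAT at -86 bp. PSMD9, another base assembly chaperone, had an sgCtrl1 peak 106 bp upstream of its start, nearest to HPD, and an sgCtrl2 peak 1075 bp inside its 3′ end, so the controls do not share a peak there. PSMD1, PSMD2, PSMD5, PSMD6, PSMD7, PSMD11, PSMD12, PSMD13 and the deubiquitinase PSMD14 had none.

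PSME2, a subunit of the interferon-induced activator ring, stood in all 6 lists with a pair of peaks in each. The nearer peak was centred 236.5 and 204.5 bp upstream of its start in RH4 NFYB and NFYC, 170 and 190 bp upstream in sgCCAAT2a and sgCCAAT2b, and 217 and 189 bp upstream in sgCtrl1 and sgCtrl2. The gene end nearest to both peaks was that of RNF31, a ubiquitin ligase gene that begins 265 bp from PSME2. The printed PSME2 promoter and that of the first RNF31 start hold no CCAAT, which says only that these letters are not in those bases. Among all promoters with a peak centre in all 6 lists, 951 of 969 (98.1%) hold CCAAT and 18 do not. The farther peak lay by a second RNF31 start (chr14:24147498), whose promoter holds CCAAT at -202, -117 and -24 bp, 3 to 35 bp from the peak centres. PSME1, which pairs with PSME2 in the ring, had a 76 bp peak in RH4 NFYC alone, at -137.5 bp. PSME3, PSME4, the inhibitor PSMF1 and the chaperones PSMG1, PSMG2, PSMG3 and PSMG4 had no peak.

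The intervals of the core alpha, core beta, ATPase and lid or base shares overlap one another and hold the all-gene 21.7%, so no difference between these classes was detectable with this number of genes. The 32 unbound genes lay well outside the 1000 bp limit. Their nearest peak in any list was 6833 bp away at PSMA4 and 6986 bp at PSMB11, with a median of 55977.5 bp and a highest value of 1324426 bp at PSMD6, and none lay within 3000 bp.

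The CCAAT of the other bound genes are given with 15 bases on each side, from RefSeq GRCh38.p14 and on the strand that reads CCAAT, to set their surroundings beside those of PSMA3 and PSMA5. These windows were chosen after the peaks were seen.
PSMA2 (chr7:42932239-42932273, minus strand): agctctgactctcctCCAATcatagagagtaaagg
PSMB3 (chr17:38752671-38752705, plus strand): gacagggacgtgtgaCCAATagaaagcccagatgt
PSMB3 (chr17:38752713-38752747, plus strand): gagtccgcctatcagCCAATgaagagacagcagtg
PSMB5 (chr14:23035365-23035399, minus strand): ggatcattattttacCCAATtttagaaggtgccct
PSMC3 (chr11:47426534-47426568, minus strand): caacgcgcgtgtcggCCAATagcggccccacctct
PSMD3 (chr17:39980575-39980609, minus strand): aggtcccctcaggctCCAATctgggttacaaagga
PSMD8 (chr19:38374468-38374502, minus strand): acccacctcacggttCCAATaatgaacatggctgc
PSMD10 (chrX:108091599-108091633, plus strand): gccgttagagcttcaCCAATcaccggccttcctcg

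**Figure D3:**
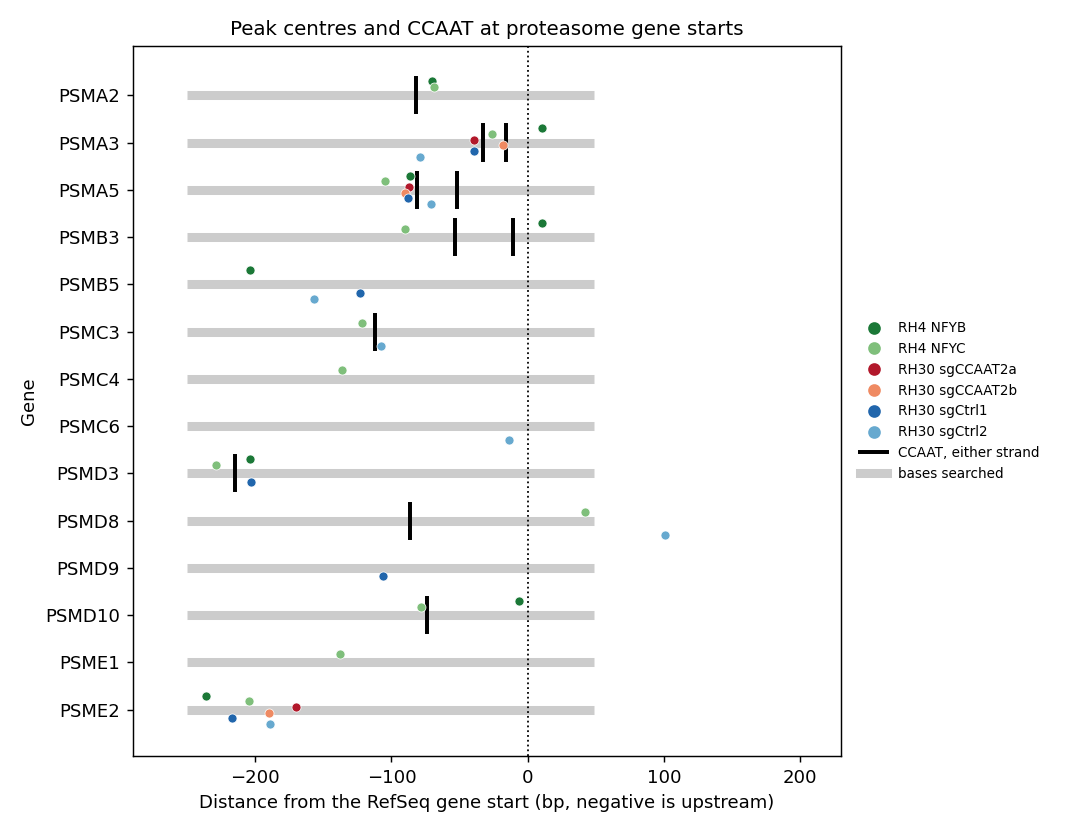
Peak centres (points, by list) and CCAAT on either strand (black ticks) against distance in bp from a RefSeq gene start (x axis), for the bound genes with a promoter entry (y axis), each at the start with the smallest median distance to its peak centres (for PSMB5 the other start has a CCAAT at -162 bp); the grey bar is the 300 bases searched. At PSMA5 all 6 centres lie between -105 and -71 bp, beside the CCAAT at -81 bp, while PSMB5, PSMC4, PSMC6, PSMD9, PSME1 and PSME2 show no CCAAT at the start drawn.

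Promoter entries were held for 42 of the 48 genes (51 promoters), and not for PSMA7, PSMB1, PSMB6, PSMB7, PSMD4 and PSMG3. CCAAT on either strand was in 20 of 51 promoters (39.2%), against 34.7% of 22199 promoters of all protein-coding genes. Within the 150 bases before the start it was in 25.5%, against 25.3% of all promoters. TGACNNNGC, the core of the antioxidant response element, searched on both strands, was in 15 of 51 (29.4%), against 13.8% of all promoters. CCGGAAG, an ETS core, searched on both strands, was also in 15 of 51 (29.4%), against 12.8%. The median GC content was 62% in these promoters and 62.3% in all. These matches describe letters and are not shown to be sites of binding.

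Not every proteasome gene with CCAAT had a peak, and some without it did. Of the 20 proteasome genes with CCAAT, 45% had a peak in at least 1 list, against 38% of all genes with CCAAT. Of the 22 without it, 22.7% had a peak, against 12.3% of all genes without it. The 11 genes with CCAAT and no peak were PSMA4, PSMB2, PSMB9, PSMB11, PSMC2, PSMC5, PSMD6, PSMD7, PSMD14, PSME3 and PSMG1. Of the genes in 6 lists, 2 (PSMA3 and PSMA5) had CCAAT and 1 (PSME2) did not, against 89.4% of all such genes with it. Of the genes in 2 to 5 lists, 7 had CCAAT and 1 (PSMD9) did not, against 73.2% of all such genes with it. Among these 7, the CCAAT lay 278 to 359 bp from the peak centres at PSMB5, and 128 and 187 bp at PSMD8. PSMD4 and PSMB1, which have no promoter entry, are not counted. The 3 genes in 1 list (PSMC4, PSMC6 and PSME1) had none, against 36.6% of all such genes with it.

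In RH30 cells, PSMA3, PSMA5, PSMD4 and PSME2 were in the lists of both edited and both control libraries. Of the 6 proteasome genes in both control lists, 4 were in both edited lists, against 66.3% of all such genes, and 2 (PSMB5 and PSMD9) were in neither, against 21.6%. At PSMD9 the control peaks lie at opposite ends of the gene, so the controls share no peak there. All shares here were counted by gene and not by peak. No proteasome gene was in an edited list without being in a control list, a pattern that 0.289% of all genes had, so a count of 0 is near the background. When the control lists were shortened to their first 2451 entries, the length of the sgCCAAT2a list, 4 proteasome genes were in both controls and none of them was in neither edited list, against 16.4% of all genes in both shortened controls. With 4 genes, that 0 does not set the proteasome genes apart.

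The place of a peak in its file gives the only order among peaks, and the headers do not say that it ranks them. The PSMA5 promoter peak stood at 9.79% and 9.85% of the sgCCAAT2a and sgCCAAT2b lists, and at 6.53% and 4.38% of the sgCtrl1 and sgCtrl2 lists. PSMA3 stood at 20.7% and 19.4% in the edited lists and at 15.9% and 17.9% in the controls. PSMD4 stood at 26.2% and 29.6% in the edited lists and at 17.3% and 7.82% in the controls. These genes lay within the first 29.6% of all 4 lists. The nearer PSME2 peak stood at 48.4% and 47.5% in the edited lists and at 24.2% and 13.8% in the controls. PSMB5, absent from the edited lists, stood at 69.2% of sgCtrl1 and 52.3% of sgCtrl2. Other genes absent from the edited lists stood earlier, with PSMD3 at 35.4% of sgCtrl1 and PSMC3 and PSMD8 at 35.7% and 33.3% of sgCtrl2, or later, with PSMC6 at 59.9% of sgCtrl2 and PSMD9 at 73.3% of sgCtrl1 and 71.2% of sgCtrl2. Over all genes in both controls, those in neither edited list had a median place of 53.5% in sgCtrl1 and 30.4% in sgCtrl2, and those in both edited lists 20.6% and 12.7%. The lists differ in length, so these places show no change between libraries.

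**Figure D4:**
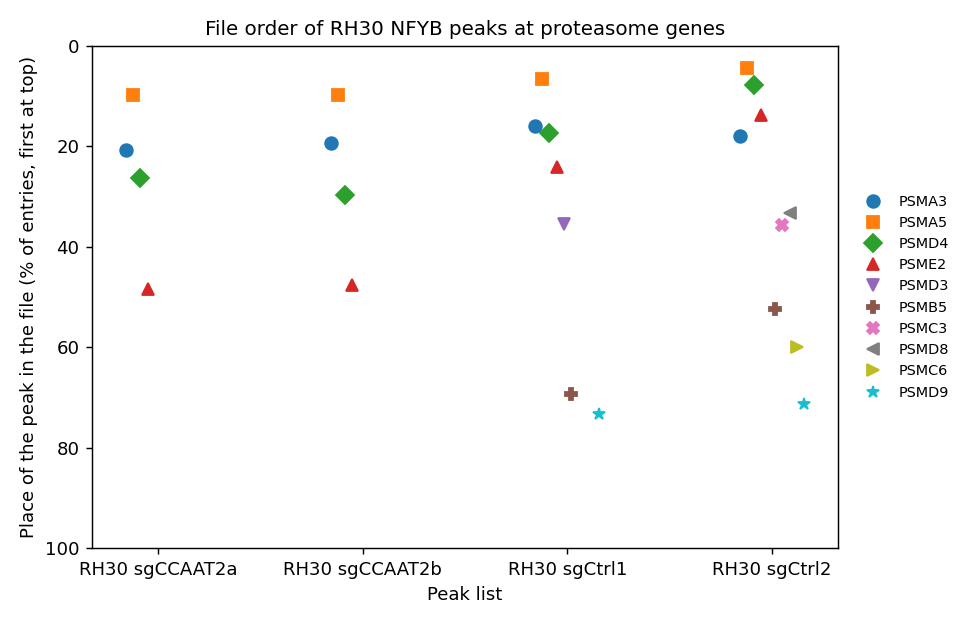
Place of the RH30 NFYB peak at each proteasome gene in its file, as a percent of the entries with the first at the top (y axis), in the edited and the control lists (x axis); the farther PSME2 peak and the 3′ PSMA5 peak are left out. PSMA5 lies nearest the top in all 4 lists, between 4.38% and 9.85%, and the genes seen only in controls range from PSMD8 at 33.3% to PSMD9 at 73.3%.

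The authors' deposited tables list sgCtrl2 peaks that were at least 2.5-fold higher in sgCtrl2 than in another library, at a Poisson p of 0.001 per their headers, and all 3 share the sgCtrl2 library. Against sgCCAAT2a, the authors' deposited table held peaks at 4 of the 9 proteasome genes with an sgCtrl2 peak (PSMA5, PSMC3, PSMD9 and PSME2), against 56.6% of all genes with one. The PSMA5 entry in the authors' deposited table is the peak by SORT1, not the promoter peak, and the PSME2 entry is the nearer one. Against sgCCAAT2b, the authors' deposited table held 2 (PSMD8 and PSMD9) of the 9, against 50.9% of all. With the entry's centre required inside the window, the authors' deposited table held 1 (PSMD8) of 8, against 50.6% of all, since the PSMD9 entry is centred 1075 bp inside the gene. Under the same rule the authors' deposited table against sgCCAAT2a held 3, and no all-gene share was computed for it. These counts rest on few genes and were given no interval. Against sgCtrl1, the authors' deposited table held 0, against 11.7% of all. The promoter peaks of PSMA3, PSMA5 and PSMD4 and the sgCtrl2 peaks of PSMB5 and PSMC6 were in none of the authors' deposited tables, although PSMB5 and PSMC6 had no peak in either edited list.

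Genes that work with the proteasome were bound in part. Of 27 other proteasome pathway genes, 7 had a peak in at least 1 list and 5 in all 6, against 21.7% and 7.03% of all genes. The 5 were ADRM1, a ubiquitin receptor of the regulatory particle like PSMD4, the assembly factor PAAF1, the transcription factor NFE2L1, the unfolding enzyme VCP and the ubiquitin gene UBB. The ADRM1 peak centres lay 14 and 61 bp outside the gene end in RH4 NFYB and NFYC, 36 and 59 bp in sgCCAAT2a and sgCCAAT2b, and 63 and 59 bp in sgCtrl1 and sgCtrl2. The PAAF1 peaks lay nearest to COA4 in every list. Of the 10 genes of the COP9 signalosome, a complex related to the lid, 4 had a peak in at least 1 list and 2 (COPS4 and COPS7B) in all 6, the COPS7B peaks lying nearest to PDE6D.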

How the data were processed

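The files were 6 peak lists, 1 RH4 consensus list and 3 differential tables. The deposited values are peak positions (bp). Column 5 holds a constant 1, so no height was used. RH30 lists were made library by library, per the file headers, by HOMER findPeaks with the factor style (2-fold over input, Poisson p over input of 0.0001, 4-fold over local signal), with an input library that the labels do not identify. Per the submitters' processing notes, the build was hg38. For RH4 the caller is not stated in the sources used.

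Positions were converted to 1-based coordinates, and gene-end windows of 1000 bp were intersected with peaks in Python 3.11.15 (pandas 2.3.3, numpy 2.4.6). Intervals are exact Clopper-Pearson (scipy 1.17.1). Tested on simulated data, bound genes equalled those of bedtools 2.31.1 in 6 of 6 lists, and 200 of 200 planted CCAAT were recovered. Libraries were grouped by title. Members and lists were chosen with earlier results of these data known. Every member could be named, as could the pathway lists and neighbours sharing a window. Promoters were printed for members in all 6 lists with CCAAT and for unbound core members, and PSME2 and the short windows were added after values were seen.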

Additional observations from a re-analysis of the deposited data

How the results depend on the processing

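Of 64 alternatives computed over 18 results, 59 stayed within 1.5 times the main value, and 5 did not. With the widest RH4 NFYC entries alone, 8 proteasome genes were bound in that list, against 13 with all entries. With the centre of an entry required inside the window, the authors' deposited table of sgCtrl2 over sgCCAAT2b held 1 proteasome gene, against 2. With the first 2451 entries of the control lists, 0 genes were in both controls and neither edited list, against 2. With only the 150 bases before the start searched, 25.5% of the proteasome promoters held CCAAT, against 25.3% of all promoters, in place of 39.2% and 34.7%. With 50% of both peaks required, 58.3% of the RH4 NFYB peaks at these genes (7 of 12) overlapped an NFYC peak, against 91.7% (11 of 12). The cause of these moves was not tested beyond the smaller windows and lists the alternatives use. With only peaks nearest to the gene's own end, an alternative chosen after seeing the data, 3 genes stayed in all 6 lists (PSMA3, PSMA5 and PSMD4). No paired analysis was possible because each group has 1 library. With 48 genes, the intervals are wide, and RH4 depth is unknown.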
